A study of Homo sapiens with 8 samples.

Results

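The 53 genes described here carry the symbol MRPL or MRPS followed by a number. All but MRPS36, which is placed in neither subunit below, encode proteins of the human mitochondrial ribosome. MRPL marks proteins first assigned to the large subunit and MRPS those first assigned to the small subunit. The 53 were taken from the 78 protein-coding genes with such a symbol in GENCODE release 44 (genome build hg38). Of the 78, 49 are MRPL and 29 are MRPS. A row of the gene table was given the name of the same-strand gene with the largest span Jaccard index, which is the bases shared by the row and the gene divided by the bases covered by either, with a minimum of 0.5. By this rule 53 of the 78 genes had a row of their own, 33 MRPL and 20 MRPS, and all 53 reached 10 normalized counts in at least 3 of the short-read libraries. They stand among 26066 tested rows of 62727 in the table, 12493 of the tested rows being protein-coding. Every member row had an identifier made by the transcript assembler, and in 33 of the 53 its ends were those of the GENCODE gene.

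The other 25 genes had no row of their own and carry no short-read value here. These were MRPL2, MRPL9, MRPL10, MRPL12, MRPL15, MRPL21, MRPL24, MRPL27, MRPL28, MRPL30, MRPL33, MRPL38, MRPL46, MRPL53, MRPL55 and MRPL57 of the large subunit, and MRPS5, MRPS6, MRPS10, MRPS16, MRPS17, MRPS23, MRPS24, MRPS25 and MRPS28 of the small subunit. For 24 of the 25, a single longer row on the same strand covered the whole gene, and the row of MRPS25 covered 41.0% of it. In 19 of the 25 cases that row also held another protein-coding gene, so its count could not be assigned to the ribosomal protein. Of these 25 rows, 19 were higher in nucleoplasm, 5 were higher in chromatin and 1 did not pass the test. Among all tested genes 45.2% were higher in nucleoplasm and 44.2% in chromatin, and among the protein-coding ones 57.5% and 30.2%.

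All libraries came from HAP1, an adherent, near-haploid human line derived from the KBM-7 leukemia line, with no treatment or genetic change named for any group. Nuclei were extracted in a buffer containing 0.5 M urea and 0.5% of an NP-40 substitute, after which the soluble part was called nucleoplasm and the pellet chromatin, and an equal volume of ERCC standards (synthetic RNAs of known amount) entered each fraction. RNA depleted of ribosomal RNA was sequenced as strand-specific 50-base reads in 3 libraries of each fraction, both fractions coming from the same 3 cultures, and chromatin RNA was also sequenced as Nanopore direct cDNA long reads in 2 libraries. The short-read values correspond to between 38895027 and 43804918 reads per chromatin library and between 75737601 and 79523938 per nucleoplasm library. MALAT1 and PVT1, nuclear noncoding RNAs used as chromatin markers, were higher in chromatin by 3.09 and 3.11 on the log2 scale, and the mRNAs of GAPDH and B2M had log2 fold changes of -2.35 and -2.11. Of 6 blood-cell markers (PTPRC, SPI1, CD33, CD34, GATA1 and MPO) none passed the filter and 4 were at 0 in every short-read library, whereas BCR and ABL1, the partners of the fusion gene of the parent line, were both measured.

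The mitochondrial ribosome translates the few mRNAs of the mitochondrial genome, all of which encode inner-membrane proteins of the respiratory chain and ATP synthase. Its RNAs are made in the mitochondrion, but all of its proteins are encoded in the nucleus, so their mRNAs are transcribed and spliced at chromatin, exported, translated in the cytosol, and the proteins then imported. The genes are scattered over the genome and expressed in nearly all cells; the members lay on 21 chromosomes, with at most 6 on any of them. The comparison of chromatin with nucleoplasm asks which of their transcripts were found mainly with chromatin and which were released from it.

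Promoter sequence is shown for members toward both ends of the range of fold changes given below, and for MRPL17, which lies between them. Promoters of nuclear genes for mitochondrial proteins are known for sites of ETS-family factors (GABP among them), YY1 and NRF1. RefSeq promoter windows (GRCh38.p14, 250 bases before to 50 after a start) were matched to 49 of the 53 members and searched on both strands for CCGGAAG (ETS), for a YY1 motif and for an NRF1 motif, whose letters are the capitals of MRPS18B and of MRPL17 below. MRPL13, MRPL23, MRPL35 and MRPS36 had no entry. In the following 30-base stretches, written 5′ to 3′ on the strand of the gene, the capitals mark the match.
MRPL51, chr12:6493348-6493377, minus strand, ETS: cggcaggcggaCCGGAAGcactgaggcggg
MRPS34, chr16:1773187-1773216, minus strand, ETS on the reverse strand: cctcttcctcgCTTCCGGccgcgaccgaac
MRPS18B, chr6:30617853-30617882, plus strand, YY1: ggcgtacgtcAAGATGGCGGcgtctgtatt
MRPL17, chr11:6683402-6683431, minus strand, NRF1: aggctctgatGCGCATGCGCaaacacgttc
MRPL42, chr12:93467512-93467541, plus strand, YY1: ggattgaaacAAGATGGCGGgttcgtggtg
MRPL32, chr7:42932142-42932171, plus strand, YY1 on the reverse strand: tacccgcgctCCGCCATCTTtacccgaaga
MRPS30, chr5:44808950-44808979, plus strand, YY1: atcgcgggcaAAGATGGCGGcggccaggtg
MRPS18A, chr6:43687804-43687833, minus strand, ETS: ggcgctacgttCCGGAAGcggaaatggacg
MRPS18A, chr6:43687763-43687792, minus strand, YY1: taggtttttgAAGATGGCGGccctcaaggc

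The ETS letters were found in the windows of 21 of the 49 members (42.9%), against 10.3% of all 35116 promoter windows and 18.1% of those of 9905 tested protein-coding genes. The YY1 letters were found in 9 members (18.4%), against 1.20% and 2.78%, and the NRF1 letters in MRPL17 only, against 1.24% and 2.28%. In 18 of the 21 members with the ETS letters and 7 of the 9 with the YY1 letters, a match lay within 50 bases of the start. MRPL51, MRPL54 and MRPS34, with 3 of the 5 lowest fold changes, held the ETS letters, and MRPS18A, MRPS30 and MRPL32, with the 3 highest, held the YY1 letters. The ETS letters were also found in MRPS18A, MRPS31 and MRPS18C, at the high end. The median log2 fold change, chromatin over nucleoplasm, was -1.84 for the 21 members with the ETS letters and -1.50 for the 28 without, and -0.60 for the 9 with the YY1 letters and -1.71 for the 40 without. MRPS18B at -2.64 and MRPL36 at -2.13 also held the YY1 letters, so the ETS and YY1 letters were found at both ends of the range. A match of letters is a description of the sequence and not a measured binding site.

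The members were measured at moderate to high levels in both fractions. Their median normalized count (a count divided by a size factor of its library) was between 1018 and 1089 in the 3 chromatin libraries and between 2879 and 3097 in the 3 nucleoplasm libraries. Together they took 0.181% ± 0.00766 (SD, n = 3) of the reads of a chromatin library and 0.279% ± 0.00403 (SD, n = 3) of those of a nucleoplasm library. The fractions did not overlap in these totals. By mean count the highest members were MRPL3, MRPL42 and MRPS27. MRPL3, a conserved protein near the peptidyl transferase centre, averaged 7172 ± 403 normalized counts in the chromatin libraries and 9766 ± 327 in the nucleoplasm libraries (SD, n = 3 each). Per kilobase of mature transcript, MRPL3 was the highest member in chromatin (4199 normalized counts per kb), and MRPL51 the highest in nucleoplasm (7152, against 852 in chromatin). The row of MRPL3 ran well past its annotated 3′ end, while its count was divided by the annotated mature length. The effect of this on the rank of MRPL3 was not tested. The count of MRPL42 fell on a mature transcript of 15557 bases and came to 503 per kb in chromatin and 563 in nucleoplasm. The lowest member was MRPS36, with 140 ± 11.8 normalized counts in chromatin and 667 ± 33.7 in nucleoplasm. Its protein is now known as a component of the oxoglutarate dehydrogenase complex.

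**Figure D1:**
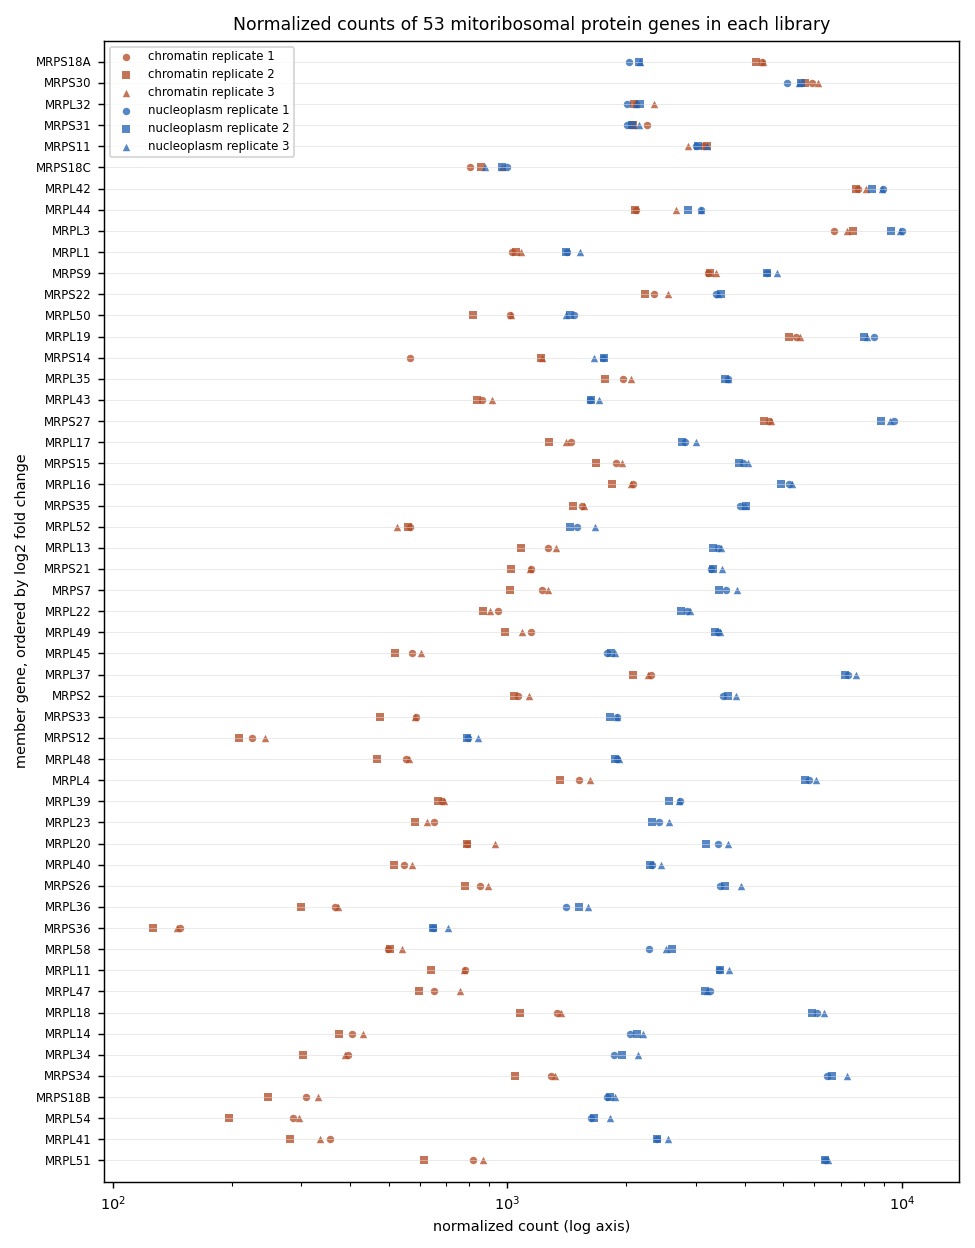
Normalized counts (log axis) of the 53 members in each of the 6 short-read libraries, with chromatin in orange, nucleoplasm in blue and a marker shape for each replicate; genes are ordered by log2 fold change. The nucleoplasm points lie to the right of the chromatin points for all but the uppermost genes, and MRPS14 has 1 chromatin library apart from the other 2.

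The spread between cultures was small. The coefficient of variation of a member had a median of 6.92% over the chromatin libraries and 3.51% over the nucleoplasm libraries. The highest was 37.7%, for MRPS14 in chromatin, followed by 21.1% for MRPL54 in chromatin. The second chromatin library had the lowest of the 3 chromatin values for 45 of the 53 members.

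Transcripts of the mitochondrial ribosomal proteins were lower in chromatin than in nucleoplasm for 47 of the 53 members, higher for 2, and not called for 4 (limma on log2 of the normalized count plus 1, adjusted p under 0.05 over the 26066 tested genes). In the same test, 45.2% of all tested genes and 57.5% of the protein-coding ones were higher in nucleoplasm, and 44.2% and 30.2% were higher in chromatin. The median log2 fold change of the members was -1.65, with a range from -3.08 to 1.05, beside a median of -0.02 for all tested genes and -0.39 for the protein-coding ones. More than 4-fold higher in nucleoplasm were 16 of the 53 members, against 8.47% of all tested genes and 5.72% of the protein-coding ones, and no member was more than 4-fold higher in chromatin, against 21.2% and 3.94%. In 47 members every nucleoplasm library was above every chromatin library, which held for 46.0% of all tested genes and 58.2% of the protein-coding ones. Counting both directions, the fractions did not overlap in 49 members (90.6% of all tested genes, 88.9% of the protein-coding ones).

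Counts of this kind compare shares of each library, so less of a transcript in chromatin and more of other RNA there cannot be told apart from them alone. The normalized ERCC sums were between 94580 and 122151 in the chromatin libraries and between 37409 and 49777 in the nucleoplasm libraries. Under scaling to equal ERCC totals, the median of all tested genes moved to -1.33 and that of the members to -2.97; all 53 members were then below 0 and 52 were called lower in chromatin. Under scaling to equal totals of all reads, the median of all tested genes moved to 0.44 and that of the members to -1.18; 43 members were below 0, 39 were called lower in chromatin, 7 higher, and MRPS14, MRPL50, MRPS22, MRPS9, MRPL1, MRPL3 and MRPL44 lost the call. The distance from the median of the members to that of all tested genes was -1.63, -1.64 and -1.62 under the deposited, ERCC and equal-total scalings. Each scaling shifts all genes of a library nearly alike on the log2 scale, so this distance was bound to stay nearly the same.

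The lowest fold changes were those of MRPL51, MRPL41, MRPL54, MRPS18B and MRPS34. MRPL51, a large-subunit protein of the mitochondrial lineage encoded on chr12:6491886-6493841, had 816, 614 and 865 normalized counts in the chromatin libraries and 6398, 6376 and 6493 in the nucleoplasm libraries. The highest chromatin value was far below the lowest nucleoplasm value, a difference of 8.39-fold in the means (log2 fold change -3.08, SE 0.12, adjusted p = 3.36e-08 by limma). MRPL41, with the shortest row of all members at 0.708 kb, had 355, 281 and 335 in chromatin and 2389, 2397 and 2551 in nucleoplasm. On the log2 scale the difference was -2.92 (SE 0.09, adjusted p = 1.50e-08 by limma). MRPL54 had 287, 197 and 296 in chromatin and 1626, 1659 and 1817 in nucleoplasm, and its log2 fold change was -2.73 (SE 0.15). MRPS34, with the next shortest row after MRPL41 (1.26 kb, 19.5% intron), had 1289, 1048 and 1322 in chromatin and 6469, 6663 and 7245 in nucleoplasm, or -2.48 on the log2 scale (SE 0.09). None of these groups of libraries overlapped.

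The 2 members higher in chromatin were MRPS18A and MRPS30. MRPS18A had 4423, 4274 and 4455 normalized counts in the chromatin libraries and 2037, 2160 and 2168 in the nucleoplasm libraries. The groups were well separated and the chromatin mean was 2.07-fold the nucleoplasm mean (log2 fold change 1.05, SE 0.05, adjusted p = 7.54e-08 by limma). Under ERCC scaling its value was -0.28, which was not called. MRPS30 had 5912, 5692 and 6131 in chromatin and 5131, 5547 and 5483 in nucleoplasm. The chromatin values were the higher ones by a small margin (log2 fold change 0.13, SE 0.05, adjusted p = 0.0323 by limma). The call for MRPS30 was lost without chromatin replicate 1 (0.13) or 3 (0.11) and without nucleoplasm replicate 1 (0.10) or 3 (0.15), and its log2 fold change was -1.19 at the same ERCC total.

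Both genes carry a small-subunit symbol, but their proteins sit in the large subunit in structures of the human mitochondrial ribosome. MRPS18A is one of 3 related genes, and the 3 differed in their fold changes. MRPS18B, whose protein is in the small subunit, had 309, 247 and 330 normalized counts in chromatin and 1788, 1817 and 1878 in nucleoplasm, or -2.64 on the log2 scale (SE 0.10, adjusted p = 3.93e-08 by limma). MRPS18C, the small-subunit protein most like bacterial S18, had 805, 856 and 967 in chromatin and 998, 972 and 878 in nucleoplasm. Its groups overlapped and it was not called (-0.12, SE 0.08, adjusted p = 0.201). Of the pseudogenes of MRPS18C with a row, MRPS18CP4 and MRPS18CP6 were at 0 in every library, and MRPS18CP7 averaged 5.39 normalized counts in chromatin and 19.2 in nucleoplasm.

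The 4 members not called were MRPS18C, MRPS11, MRPS31 and MRPL32, and these were also the 4 whose fractions overlapped. MRPS11, which lies head to head with MRPL46 at a distance of 320 bases between their starts, had 3126, 3202 and 2863 normalized counts in chromatin and 3004, 3050 and 3212 in nucleoplasm (log2 fold change -0.01, SE 0.06). MRPS31 had 2263, 2082 and 2084 in chromatin and 2011, 2067 and 2154 in nucleoplasm (0.04, SE 0.05). MRPL32, a protein matured in mitochondria by the m-AAA protease, had 2120, 2091 and 2358 in chromatin and 2014, 2171 and 2117 in nucleoplasm (0.06, SE 0.06). In each, the fractions were level within the spread of the cultures under the deposited scaling. At the same ERCC total all 4 were called lower in chromatin, at -1.44, -1.34, -1.28 and -1.27, and at the same total of all reads all 4 were called higher, at 0.34, 0.45, 0.51 and 0.52.

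MRPS14, the small-subunit protein whose values were least even, had 567, 1219 and 1226 normalized counts in chromatin and 1746, 1760 and 1654 in nucleoplasm. Chromatin replicate 1 was far below the other 2, and all 3 were below every nucleoplasm library. On the log2 scale the difference was -0.86 (SE 0.26, adjusted p = 0.0134 by limma), and between -1.05 and -0.49 when each library was left out in turn, with the call kept each time; it was not called with DESeq2 (-0.68) or at equal totals of all reads (-0.40).

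**Figure D2:**
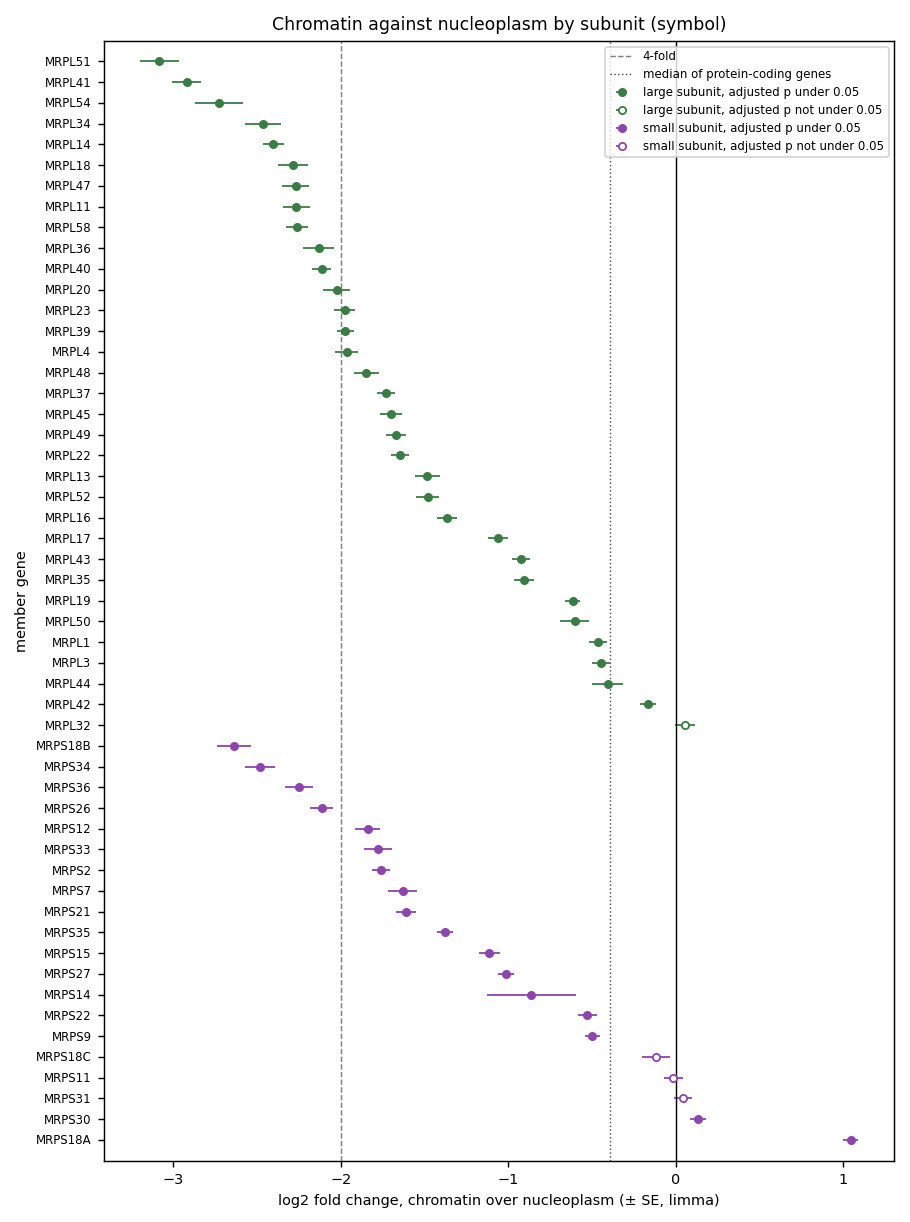
Log2 fold change, chromatin over nucleoplasm, of each member (horizontal axis, bars ± SE from limma), grouped by subunit symbol; open points were not called at an adjusted p of 0.05. The dashed line marks 4-fold and the dotted line the median of tested protein-coding genes at -0.39; 32 of 33 large-subunit and 15 of 20 small-subunit genes were called lower in chromatin.

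By symbol, the large subunit had 32 of 33 members lower in chromatin, none higher and MRPL32 not called, with a median log2 fold change of -1.73 and 12 members past 4-fold. The small subunit had 15 of 20 lower, 2 higher and 3 not called, with a median of -1.24 and 4 past 4-fold. The difference between the medians, small minus large, was 0.49, and the SD of this difference over the 9 pairs of a chromatin and a nucleoplasm library was 0.131. The pairs reuse the same libraries and are not independent, and this SD does not cover which genes make up each subunit. When MRPS18A and MRPS30 were counted with the large subunit, where their proteins sit, and MRPS36 with neither, the medians were -1.70 for 35 genes and -1.38 for 17, and the difference was 0.32. The 17 then held 14 genes lower in chromatin, none higher and 3 not called. The ranges of the subunits overlapped almost fully, from -3.08 to 0.06 for the large and from -2.64 to 1.05 for the small subunit by symbol.

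Several members have well-known places in the ribosome. Among proteins of the large subunit, MRPL11, of the GTPase-associated centre, had -2.26 on the log2 scale (SE 0.08), and MRPL4, MRPL22 and MRPL23, which line or border the exit tunnel, had -1.96, -1.65 and -1.98. MRPL58, a peptidyl-tRNA hydrolase that became part of the ribosome, had -2.26 (SE 0.06), and MRPL1, of the stalk beside the tRNA exit site, -0.46 (SE 0.05). In the small subunit, MRPS12, next to the decoding site, had -1.84 (SE 0.07), and MRPS2 and MRPS7 had -1.76 and -1.63. All of these were called lower in chromatin, though MRPL1 was not called at equal totals of all reads (0.0001). MRPS36 had 148, 126 and 145 normalized counts in chromatin and 647, 647 and 705 in nucleoplasm, or -2.25 on the log2 scale (SE 0.08) despite its low level.

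The span of the row, from its first to its last base including introns, ranged from 0.708 kb for MRPL41 to 351 kb for MRPS22. Members with short spans had the lower fold changes. The median log2 fold change was -2.11 for 11 members under 5 kb, -2.02 for 9 of 5 to 10 kb, -0.88 for 14 of 10 to 20 kb and -1.38 for 19 of 20 kb or more. Protein-coding genes in the same bins had medians of -0.97 (903 genes), -0.67 (1138), -0.62 (1903) and -0.27 (8549). The members were below the protein-coding genes in all 4 bins, by least in the 10 to 20 kb bin, which held 3 of the 4 members not called. All 20 members under 10 kb were called lower in chromatin, and 11 of the 16 past 4-fold were among them. Among protein-coding genes under 5 kb, 69.4% were called higher in nucleoplasm and 20.6% were past 4-fold there.

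Across the 53 members, Spearman's rho between span and log2 fold change was 0.479, given as a description since genes are not replicates and share libraries; without the 2 longest spans it was 0.455. It was 0.412 for the 33 large-subunit genes, 0.719 for the 20 small-subunit genes and 0.234 for the tested protein-coding genes. With the span of the canonical transcript, which for MRPS22 was 13110 bases, it was 0.442 for the large and 0.510 for the small subunit. By subunit, the medians under 5 kb were -2.12 (large, 6 genes) and -1.84 (small, 5 genes), and at 20 kb or more they were -1.70 (13) and -0.51 (6). The 6 small-subunit genes of 20 kb or more include MRPS22, MRPS27, MRPS31 and MRPS18A. The 3 longest were MRPS22, linked to inherited mitochondrial disease, MRPS27, an RNA-binding pentatricopeptide repeat protein, and MRPL1. MRPS22 had 2350, 2236 and 2561 normalized counts in chromatin and 3375, 3488 and 3421 in nucleoplasm (log2 fold change -0.53, SE 0.06, adjusted p = 2.57e-05 by limma). MRPS27 had 4611, 4464 and 4669 in chromatin and 9558, 8865 and 9332 in nucleoplasm (-1.01, SE 0.05). All 3 were lower in chromatin without overlap of the fractions, but at equal totals of all reads MRPS22 (-0.065) and MRPL1 (0.0001) were not called.

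**Figure D3:**
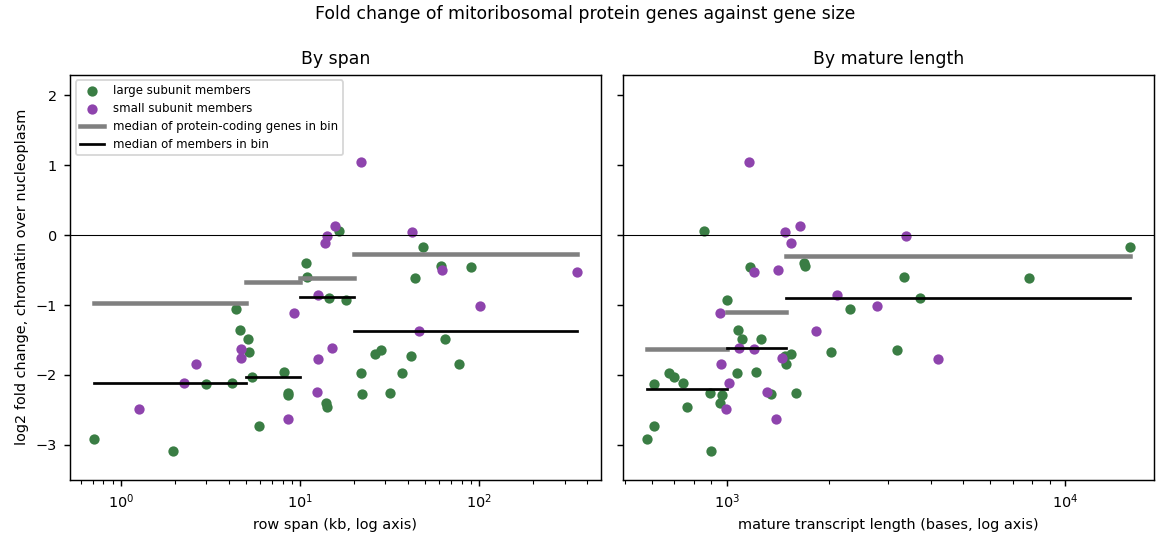
Log2 fold change of each member (vertical axis) against the span of its row in kb (left, log axis) and the length of its mature transcript in bases (right, log axis), coloured by subunit. Black bars are medians of members and grey bars medians of protein-coding genes in each bin; in all 4 span bins and all 3 length bins the members' median is the lower.

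The length of the mature transcript ordered the members at least as closely as span did. Its rho with log2 fold change was 0.541 over the 53 members, against 0.409 for summed intron length and 0.316 for the number of exons, and 0.317 for mature length among protein-coding genes. Mature length and span were themselves related, with a rho of 0.431. The median log2 fold change was -2.20 for 16 members with mature transcripts under 1000 bases, -1.62 for 18 of 1000 to 1500 bases and -0.90 for 19 of 1500 bases or more, beside -1.63, -1.11 and -0.30 for protein-coding genes of those lengths. Of the 16 shortest transcripts, 11 were past 4-fold, and MRPL32, at 859 bases, was the exception that was not called. In the large subunit the rho with mature length was 0.638 and in the small subunit 0.361, the reverse of the order for row span. By exon number the medians were closer, at -1.84 for 15 genes with 2 or 3 exons, -1.63 for 21 with 4 to 6 and -1.48 for 17 with 7 or more. MRPL42 had the longest mature transcript of the members, 15557 bases, and 7731, 7633 and 8110 normalized counts in chromatin against 8969, 8429 and 8891 in nucleoplasm (-0.16, SE 0.05, adjusted p = 0.00981 by limma). It was not called with DESeq2 (-0.071) and was called higher in chromatin at equal totals of all reads (0.30).

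The rows of 5 members, MRPL47, MRPL17, MRPL3, MRPS30 and MRPS18A, had a Jaccard index under 0.8. In each the row ran past the annotated 3′ end of the gene, by 5870, 1414, 20743, 4299 and 5213 bases in that order, and no other member row ran more than 1000 bases past either end. Both members higher in chromatin were among these 5, whose median log2 fold change was -0.45; the other 48 had a median of -1.68, with 44 lower in chromatin, none higher and 4 not called. Reads beyond the annotated end therefore entered the counts of MRPS18A and MRPS30, and their part in the result was not tested. MRPL3 had 6732, 7524 and 7261 normalized counts in chromatin and 10001, 9393 and 9904 in nucleoplasm (-0.45, SE 0.05). In 10 members the row held another annotated gene on the same strand, Y RNA and 7SL copies among them, and their median was -0.89.

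Of the separate rows that lay wholly inside the row of a member, 3 passed the filter. All 3 were more than 4-fold higher in chromatin, as were 21.2% of all tested genes. ENSG00000272910 and ENSG00000269815 reached the minimum count of the filter in chromatin libraries only, so the filter fixed their direction. The row inside MRPL1 reached that minimum in every library of both fractions. This unnamed row, on the strand of MRPL1 at chr4:77899050-77905317, had 655, 893 and 636 normalized counts in chromatin and 24.6, 30.1 and 23.7 in nucleoplasm. Its log2 fold change was 4.74 (SE 0.16, adjusted p = 2.00e-08 by limma). Its place relative to the exons of MRPL1 was not tested. MRPL1 itself had 1026, 1052 and 1080 in chromatin and 1416, 1409 and 1527 in nucleoplasm. ENSG00000272910, a lncRNA on the strand of MRPL47 within the stretch past its annotated 3′ end, had 2.22 on the log2 scale (SE 0.34), and ENSG00000269815, a lncRNA opposite MRPL34, had 2.76 (SE 0.34). All 3 stayed above 0 at the same ERCC total, at 3.44, 1.03 and 1.73.

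Many members have pseudogenes or neighbours named after them. Their sequence identity, and whether reads were split between them and the members, was not tested. GENCODE names 58 pseudogenes after 25 of the members; these 25 had a median log2 fold change of -1.61 and the other 28 a median of -1.80. Of all rows named after an MRPL or MRPS gene that are not protein-coding, 16 passed the filter. Of these, 10 were higher in nucleoplasm and 6 higher in chromatin, beside 45.2% and 44.2% of all tested genes. The highest mean of any was 1091 normalized counts. MRPL37P1 and MRPL40P1 reached 10 normalized counts in chromatin libraries only, and MRPS21P1 and MRPS18CP7 in nucleoplasm libraries only. For these the filter fixed the direction. MRPL20-AS1 and MRPL20-DT, 2 lncRNAs beside MRPL20 named here after their values were seen, had log2 fold changes of -1.02 (SE 0.06) and 1.84 (SE 0.08), with MRPL20 itself at -2.02 (SE 0.08). A protein-coding gene on the other strand started within 1000 bases of the start of 19 members (35.8%), against 12.8% of the tested protein-coding genes. The median log2 fold change was -1.73 for these 19 and -1.55 for the other 34.

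The long-read libraries gave another view of chromatin, in TPM, a share of all transcripts scaled to 1000000 per library, without a nucleoplasm counterpart. Summed over the transcripts of each gene, 51 of the 53 members were above 0 in both libraries. The medians over the 53 members were 27.1 TPM and 32.7 TPM and the sums 1726 TPM and 2153 TPM. For MRPL18, MRPL34, MRPL35, MRPS2, MRPS18B and MRPS26 among the 51, no single transcript was above 0 in both libraries. Over the 53 members, Pearson's r of log2(TPM + 0.1) between the libraries was 0.870, and 0.641 over the 51 above 0, since the 2 others stood at 0 in both; neither value is a test. The highest members were MRPL20 (105 and 165 TPM), MRPL49 (91.6 and 177 TPM) and MRPL32 (127 and 116 TPM). MRPL32, level between the fractions in the short reads, had more TPM in chromatin than MRPS18A (8.32 and 13.5 TPM), and MRPS30 had 23.8 and 35.9 TPM. Of the 25 genes with no short-read row of their own, 22 were above 0 in the first library and 25 in the second.

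MRPL47 and MRPL51 were listed at 0 on their own strand in both long-read libraries. On the opposite strand of the same loci, transcripts matched to no gene on that strand had 8.21 and 11.4 TPM for MRPL47 and 3.05 and 3.62 TPM for MRPL51. Such opposite-strand transcripts were found for 33 members in the first library and 34 in the second, with sums of 602 TPM and 721 TPM, and in 8 members they exceeded the same-strand TPM in both libraries. Direct cDNA reads carry no strand of their own, so an opposite-strand transcript and an antisense RNA cannot be told apart here. Long-read TPM and the short-read chromatin count per kilobase of mature transcript had a rho of 0.412 over the 53 members, and long-read TPM and log2 fold change a rho of -0.04; the depth of the long-read libraries is unknown from TPM.

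**Figure D4:**
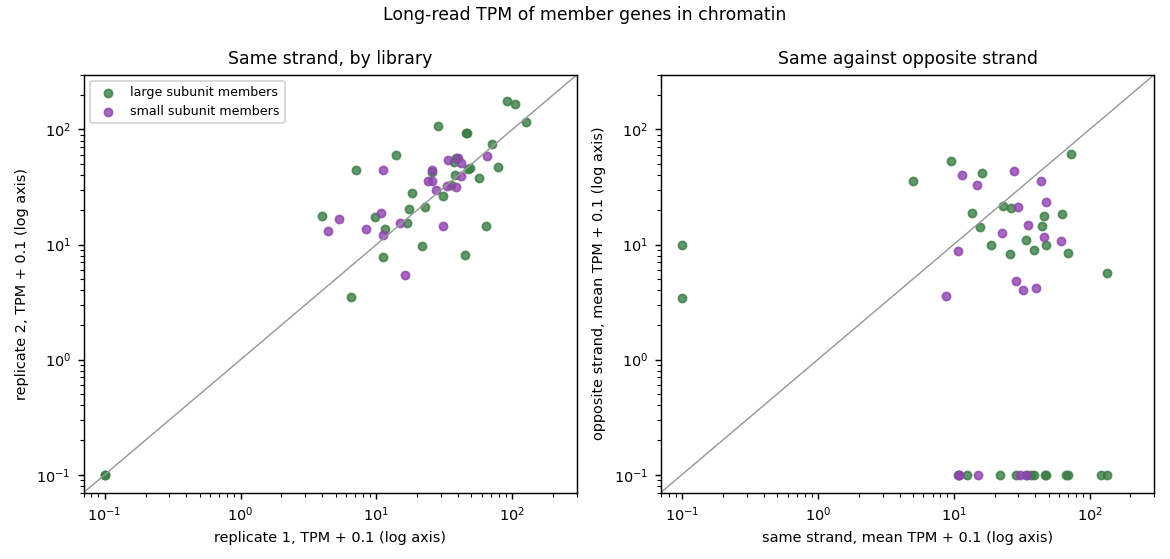
Long-read TPM plus 0.1 (log axes) of the 53 members in chromatin, coloured by subunit: replicate 1 against replicate 2 on the same strand (left), and the mean on the same strand against the mean on the opposite strand (right), with the line of equality. MRPL47 and MRPL51 lie at 0.1, that is at 0 TPM, on the same strand in both libraries.

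Other genes of mitochondrial translation were taken in 5 lists drawn up for this description. In each list more tested genes were lower in chromatin than higher. The same held for tested protein-coding genes, of which 57.5% were lower and 30.2% higher. In 4 of the 5 lists the median was nearer to 0 than that of the members. Of 5 ribosomal proteins under other symbols, 4 were lower in chromatin and 1 higher, with a median log2 fold change of -2.06. They ran from GADD45GIP1 (687 ± 84.2 normalized counts in the chromatin libraries, 4344 ± 264 in the nucleoplasm libraries, SD, n = 3 each; -2.66) to PTCD3, a pentatricopeptide repeat protein (14902 ± 475 and 9909 ± 239; 0.59). AURKAIP1 had -2.66, CHCHD1 -2.06 and DAP3, a GTP-binding protein of the small subunit, -0.59.

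Of 14 tested translation factors, 11 were lower in chromatin and 3 higher, with a median of -0.73. TUFM, the elongation factor that brings tRNA to the ribosome, was lowest (2008 ± 247 and 7675 ± 495 normalized counts in chromatin and nucleoplasm; -1.94), and MTRF1, a release factor, highest (789 ± 16.7 and 349 ± 13.6; 1.18). Also higher in chromatin were MTRF1L (0.89), a relative of MTRF1, and the recycling factor MRRF (0.50), while GFM2, also a recycling factor, and MTRFR, a release factor relative, were lower (-0.45 and -1.27). These were named after their values were seen, and at equal ERCC totals MTRF1L and MRRF turned to -0.44 and -0.83. Of 19 tested assembly factors, which modify or join the ribosomal RNA and proteins, 12 were lower in chromatin, 6 higher and 1 not called, with a median of -0.63, from MPV17L2 (-2.16) to the ribosomal RNA methyltransferase METTL15 (1.51).

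Of 14 tested mitochondrial aminoacyl-tRNA synthetases and amidotransferase subunits, 10 were lower in chromatin, 2 higher and 2 not called, with a median of -0.82, from IARS2 (-1.99) to CARS2 (0.68). Of 10 tested genes of mitochondrial transcription and RNA processing, 8 were lower, none higher and 2 not called, with a median of -0.81, from PNPT1, a polynucleotide phosphorylase (-1.10), to the elongation factor TEFM (0.07, not called). Over the 5 lists, 45 of 62 tested genes were lower in chromatin and 4 were past 4-fold, 3 of them ribosomal proteins under other symbols, beside 47 of 53 and 16 of 53 for the members and 57.5% and 5.72% of tested protein-coding genes. The shares of the lists were thus nearer to those of protein-coding genes than the shares of the members were. At the same ERCC total, PTCD3, MTRF1, CARS2 and TEFM turned to -0.74, -0.15, -0.64 and -1.25. GFM1, 7 assembly factors, 6 synthetases or amidotransferase subunits and 3 genes of transcription or RNA processing had no row of their own, and FASTKD2 was below the filter.

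**Figure D5:**
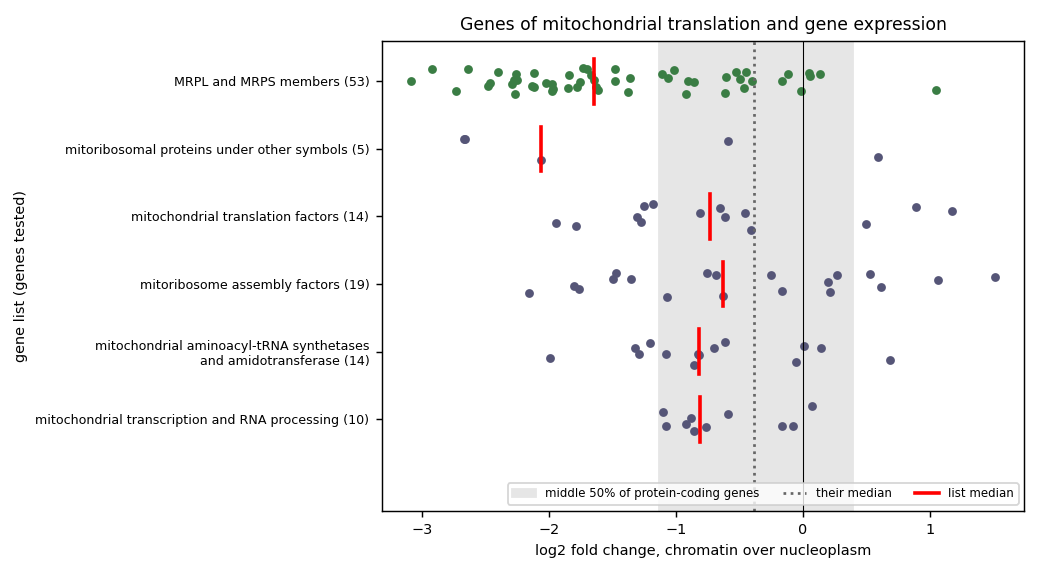
Log2 fold change (horizontal axis) of the 53 members and of 5 lists of genes for mitochondrial translation and gene expression, 1 point a gene, with the number of tested genes beside each list; points are shifted up or down only to separate them. Red bars are list medians, from -1.65 for the members and -2.06 for ribosomal proteins under other symbols to -0.63 for assembly factors, and the grey band holds the middle 50% of tested protein-coding genes.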

How the data were processed

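The gene table held counts that the authors had divided by DESeq2 size factors, deposited as normalized counts (unit: signal) for 6 HAP1 short-read libraries; per the methods, reads were aligned to hg38 with ERCC sequences by HISAT2 2.1.0 and assembled and counted with StringTie guided by GENCODE. Gene counts were estimated from transcript coverage. The long-read table of 2 chromatin libraries held TPM per transcript, made by the authors with minimap2 and StringTie; whether strands were assigned to reads beforehand is not given in the sources used here. Every normalized count was a whole multiple (within 0.01) of the value of 1 read, so 100% of values gave whole reads. These recovered reads gave the reads per library, the members' shares of reads, and the scalings to equal ERCC totals and equal totals. They were also used for edgeR 4.0.16 and DESeq2 1.42.0 as alternatives. At an adjusted p under 0.05, edgeR and DESeq2 called 23197 and 22145 of the 26066 tested genes. ERCC rows stayed out of all tests.

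Rows were named by GENCODE release 44 as given in the text. Rows spanning more than 200 bases that reached 10 normalized counts in 3 or more libraries were tested. The test was limma 3.58.1 in R 4.3.3 (trend, 2-sided, Benjamini-Hochberg over all tested genes) on log2(normalized count + 1). It set 3 chromatin against 3 nucleoplasm libraries, both from the same 3 cultures per the methods, without a term for culture. This log2 scale understates changes of low genes. An exact permutation test of 3 against 3 cannot go below p = 0.1 and was not used. Long-read transcripts were summed per gene. SEs are limma's. The fits were also run on simulated data in which few genes differed between the groups. Most tested genes were called here, so that run does not check the fits in a setting like this one. The members and gene lists were chosen with earlier results of these data known. Genes were named by rule: the 5 highest and 5 lowest fold changes, the 3 highest counts, the 3 longest and 3 shortest spans, the members not called, MRPS18A, MRPS18B, MRPS18C, MRPS30 and MRPS36, the genes with no row, the ends of each list and the 3 largest rows inside members; others were named for their role in the ribosome or after their values were seen.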

Additional observations from a re-analysis of the deposited data

How the results depend on the processing

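Of 189 alternative values for group results (counts, medians, differences and correlations), 142 stayed close to the value given, 47 moved and none changed sign. Counts cannot change sign, and scaling shifts all members nearly alike, so subunit differences and rank correlations could hardly move under it. Of 420 alternative values for the named genes, 386 kept their direction and their side of the threshold, 9 lost the call, 8 gained one and 17 changed sign. The cause of these changes was not tested, except where the alternative itself removes genes or sets another threshold.

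Scaling moved the values most. At equal ERCC totals 0 members were higher in chromatin and 39 were past 4-fold in nucleoplasm. The medians were then -2.97 for all members, -3.05 for the large subunit, -2.57 for the small subunit and -2.08 for the other translation genes. MRPS31 stood at -1.28, MRPL32 at -1.27, MRPS30 at -1.19, MRPS18A at -0.28, PTCD3 at -0.74, MTRF1 at -0.15, CARS2 at -0.64 and TEFM at -1.25. At equal totals of all reads 7 members were higher in chromatin and 6 were past 4-fold in nucleoplasm, and the medians were -1.18, -1.27, -0.78 and -0.30 in the same order. MRPL1 then stood at 0.0001, MRPL3 at 0.016, MRPL42 at 0.30, MRPS18C at 0.34 and MRPS11 at 0.45.

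DESeq2 on recovered reads called 4 members higher in chromatin and 45 lower, with MRPS31 and MRPL32 gained and MRPS14 and MRPL42 lost; the median was -1.64 for the large subunit and -0.66 for the other translation genes. MRPS11 stood at 0.080 with DESeq2 and 0.015 with edgeR, whose counts of called members were 47 lower and 2 higher.

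Leaving out each library in turn gave 47 to 48 members lower in chromatin, 1 to 2 higher and 15 to 18 past 4-fold. The call that was lost was that of MRPS30, without chromatin replicate 1 or 3 or nucleoplasm replicate 1 or 3. The median of the members ran from -1.68 to -1.61, the difference between the subunits from 0.47 to 0.50, rho with span from 0.478 to 0.498, and MRPS11 from -0.046 to 0.035, being 0.035 without chromatin replicate 3 and 0.02 without nucleoplasm replicate 3.

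With the members whose span Jaccard was at least 0.8, 0 were higher in chromatin, the small-subunit median was -1.49, the subunit difference 0.30 and rho with span 0.519. A 2-fold minimum left 36 members higher in nucleoplasm. With subunits assigned by place in the ribosome, the small-subunit median was -1.38 and the difference 0.32. In place of the span of the row, rho was 0.460 with the GENCODE span, 0.409 with intron length, 0.316 with exon number and 0.541 with mature length. For the long reads, Pearson's r was 0.919 with a pseudocount of 0.01, 0.792 with a pseudocount of 1, and 0.594 with reference transcripts only.

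A pair of alternatives was chosen after seeing the data. Without members whose row held another gene, the subunit medians were -1.85 and -1.62, the difference 0.23 and rho with span 0.424. Without members with a pseudogene named after them, 27 of 28 were lower in chromatin and 1 higher, 10 were past 4-fold, the median was -1.80, the subunit medians -1.97 and -1.63, the difference 0.34 and rho 0.386.

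With the replicate block, 47 members were lower in chromatin and 2 higher, the median was -1.65, and 23227 genes in all were called, against 23286 without it. Libraries of the 2 fractions with the same replicate number had deviations that correlated at 0.087, 0.053 and 0.063, each the highest for its library but under 0.1. Both fractions came from the same 3 cultures, but no source used here ties a replicate number to a culture, so the test without the block was kept; the block changed no call among the members.

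With 3 libraries a fraction and 2 for the long reads, small differences such as that of MRPS30 lie near the spread between cultures. The deposited scaling sets the zero of the fold changes. The short-read counts came from transcript coverage over assembled rows, so any reads from neighbours, downstream transcription and pseudogenes were not separated. For 25 of the 78 genes there is no value of their own. TPM gives no depth for the long reads.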
